A study of Mus musculus with 6 samples.

Results

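The transcripts examined were those of glycolysis and of the response to low oxygen, in mouse mesenchymal stem cells exposed to pulsed terahertz radiation and in unexposed cells. A list of 32 genes was matched by exact symbol to probe sets annotated with that symbol alone, and each gene was read from its brightest probe set over the 6 arrays. Of the 32 genes 30 were measured, out of 18193 genes with such a probe set, and Gpi1 and Eno1 are not analysed here. They comprised 13 glycolytic enzymes, 6 transporters and flux regulators, 4 genes of oxygen sensing, and 7 further targets of hypoxia-inducible factor (HIF). No gene of the list passed the test between irradiated and control cells, and the text gives what the arrays read for each.

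The irradiated group received broadband radiation centred near 10 THz for 12 h, in pulses of 35 fs that came at 1 kHz and delivered 1 mW/cm2 on average. The control group stood next to the irradiated dishes without exposure. Both groups carried the same adipogenic drugs, rosiglitazone at 1 µM, insulin at 5 µg/ml, IBMX (a phosphodiesterase inhibitor) at 100 µM and dexamethasone at 1 µM, renewed 48 h before exposure, and both were held at 26 to 27 °C. There were 3 independent experiments with 1 irradiated and 1 control culture each. The cells were a commercial preparation of unmodified mouse cells, no genotype is given in the labels, and the labels used here state no oxygen level.

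Glycolysis turns glucose into pyruvate in the cytosol, and lactate dehydrogenase turns pyruvate into lactate when mitochondria do not take it up. HIF is a transcription factor made of an oxygen-labile alpha subunit and a stable partner. Prolyl hydroxylases mark the alpha subunit for destruction when oxygen is present. At low oxygen it accumulates and binds short core sequences, such as ACGTG, in front of many glycolytic genes. Genes for pH control, mitophagy and blood vessel growth are bound as well. Much of this control acts on the HIF protein and not on its mRNA. Differentiating fat cells use glucose both for energy and as the source of glycerol phosphate for triglycerides.

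The sequence ACGTG was searched on both strands of the 300 bases around each start site in the RefSeq table for GRCm38.p6. No other form of the core was searched, so a stretch without a match lacks this form only. A CACGTG palindrome counts once on each strand, and these matches overlap. Of the 30 measured genes 27 had a window there, and 20 of these (74.1%) held a match in at least 1 of their windows, against 2301 of 7526 (30.6%) for all genes with a mean log2 value of at least 6. Counted over windows, so that genes with several starts have no advantage, 24 of 40 (60.0%) held a match, against 6447 of all 32851 (19.6%). The listed genes were not filtered by level in either count, and the share over all windows covers genes of any level. The list was built from glycolytic genes and known HIF targets, so its higher share is not a result about irradiation. The match was in 9 of 13 glycolytic enzymes and in 5 of 6 further HIF targets. The 250 bases upstream of the start are printed for the 5 genes whose difference had 1 sign in all 3 experiments, with ACGTG or its reverse complement CACGT in capitals. Where a gene has several windows, 1 with a match is shown.
Pkm, chr9:59656977-59657226, plus strand: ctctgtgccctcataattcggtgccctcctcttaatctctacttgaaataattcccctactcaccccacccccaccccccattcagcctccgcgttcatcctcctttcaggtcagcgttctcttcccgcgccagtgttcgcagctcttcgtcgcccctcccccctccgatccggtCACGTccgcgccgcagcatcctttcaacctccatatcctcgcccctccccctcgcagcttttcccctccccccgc
Tpi1, chr6:124814159-124814408, minus strand: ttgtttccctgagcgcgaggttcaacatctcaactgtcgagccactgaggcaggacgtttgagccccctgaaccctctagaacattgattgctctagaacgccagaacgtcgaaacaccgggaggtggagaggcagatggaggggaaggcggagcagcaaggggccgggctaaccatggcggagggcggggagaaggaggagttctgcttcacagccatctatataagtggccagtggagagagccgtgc
Pfkfb3, chr2:11553930-11554179, minus strand: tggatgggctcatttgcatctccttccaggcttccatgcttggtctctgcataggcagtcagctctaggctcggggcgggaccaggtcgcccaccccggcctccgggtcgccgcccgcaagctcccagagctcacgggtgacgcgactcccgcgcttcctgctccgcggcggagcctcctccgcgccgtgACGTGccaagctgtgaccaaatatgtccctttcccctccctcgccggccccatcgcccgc
Ankrd37, chr8:45999851-46000100, minus strand: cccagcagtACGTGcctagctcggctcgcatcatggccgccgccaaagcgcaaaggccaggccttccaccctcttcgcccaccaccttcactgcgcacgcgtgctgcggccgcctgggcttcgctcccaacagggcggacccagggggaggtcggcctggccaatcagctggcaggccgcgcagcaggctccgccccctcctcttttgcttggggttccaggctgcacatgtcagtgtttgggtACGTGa
Hk2, chr6:82774455-82774704, minus strand: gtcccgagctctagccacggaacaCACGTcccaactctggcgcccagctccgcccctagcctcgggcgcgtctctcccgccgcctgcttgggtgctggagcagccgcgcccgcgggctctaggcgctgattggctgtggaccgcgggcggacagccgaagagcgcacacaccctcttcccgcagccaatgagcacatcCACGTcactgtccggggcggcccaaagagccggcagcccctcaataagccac

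Of these 5 stretches, that of Tpi1 held no match and those of Ankrd37 and Hk2 held 2 each. The matches began 241 and 6 bases before the start in Ankrd37, 226 and 52 bases before it in Hk2, 75 in Pkm and 60 in Pfkfb3. Pkm, Tpi1, Pfkfb3 and Ankrd37 read lower, and Hk2 alone read higher. Windows with a match were preferred for printing, and the other Pkm window holds none. These stretches therefore cannot show whether a match goes with the direction of a difference. A match describes these letters and does not show a bound factor.

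Values are on the deposited log2 scale, where array medians lay between 4.75 and 4.80, and precision is limited by there being 3 arrays a group. Stromal markers were present, with 12 of 13 measured at a mean of at least 6, as were fat cell markers, with 7 of 7. Macrophage markers were present as well, with all 12 at a mean of at least 6. All 12 had lower means in irradiated cells, where 48.5% of genes at that level were lower, and 0 of them passed the adjusted threshold. Their summed level on the log2 scale was 15.53, 16.04 and 16.10 in irradiated cultures of experiments 1 to 3. In the controls it was 15.71, 16.07 and 16.31, so it was lower with irradiation in each pair. Their median difference was -0.225, 0.045 and -0.125 in the 3 experiments, and its part in the differences given here was not tested. In such mixed RNA, fewer cells of a type and less RNA per cell cannot be told apart. Summed in the same way, stromal markers read 15.07 to 15.29 in irradiated cultures and 15.02 to 15.26 in controls. Fat cell markers read 15.52 to 15.64 and 15.48 to 15.68. On every array the macrophage sum was above the stromal sum. These sums run over different genes and do not give cell proportions. Endothelial and red cell markers lay below 6, with 0 of 5 and 0 of 3 at that level, and 1 of 5 epithelial markers reached it.

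Irradiated minus control differences were computed within each experiment and tested with limma over all 45037 probe sets, with the experiment as a block. Of 30 genes 0 had a limma adjusted p under 0.05, as had 0% of the 18193 genes, and adjusted p ran from 0.619 for Pkm to 1.00 for Aldoa. At an unadjusted p under 0.05 there were also 0, where the share over all genes was 8.31%. The other settings tried gave 0 to 6, where the shares over all genes tested ran from 3.63% to 13.5%. Standard errors lay between 0.09 and 0.18. Mean differences ran from -0.25 for Hk1 to 0.38 for Hk2, with 18 genes lower, 11 higher and Aldoa at 0, where 47.9% of all genes were lower. The median over the 30 was -0.03, beside 0.01 over all genes. Of 10 genes with several probe sets at a mean of at least 6, 4 (Tpi1, Egln1, Hif1a and Adm) had all of these on 1 side of 0.

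**Figure D1:**
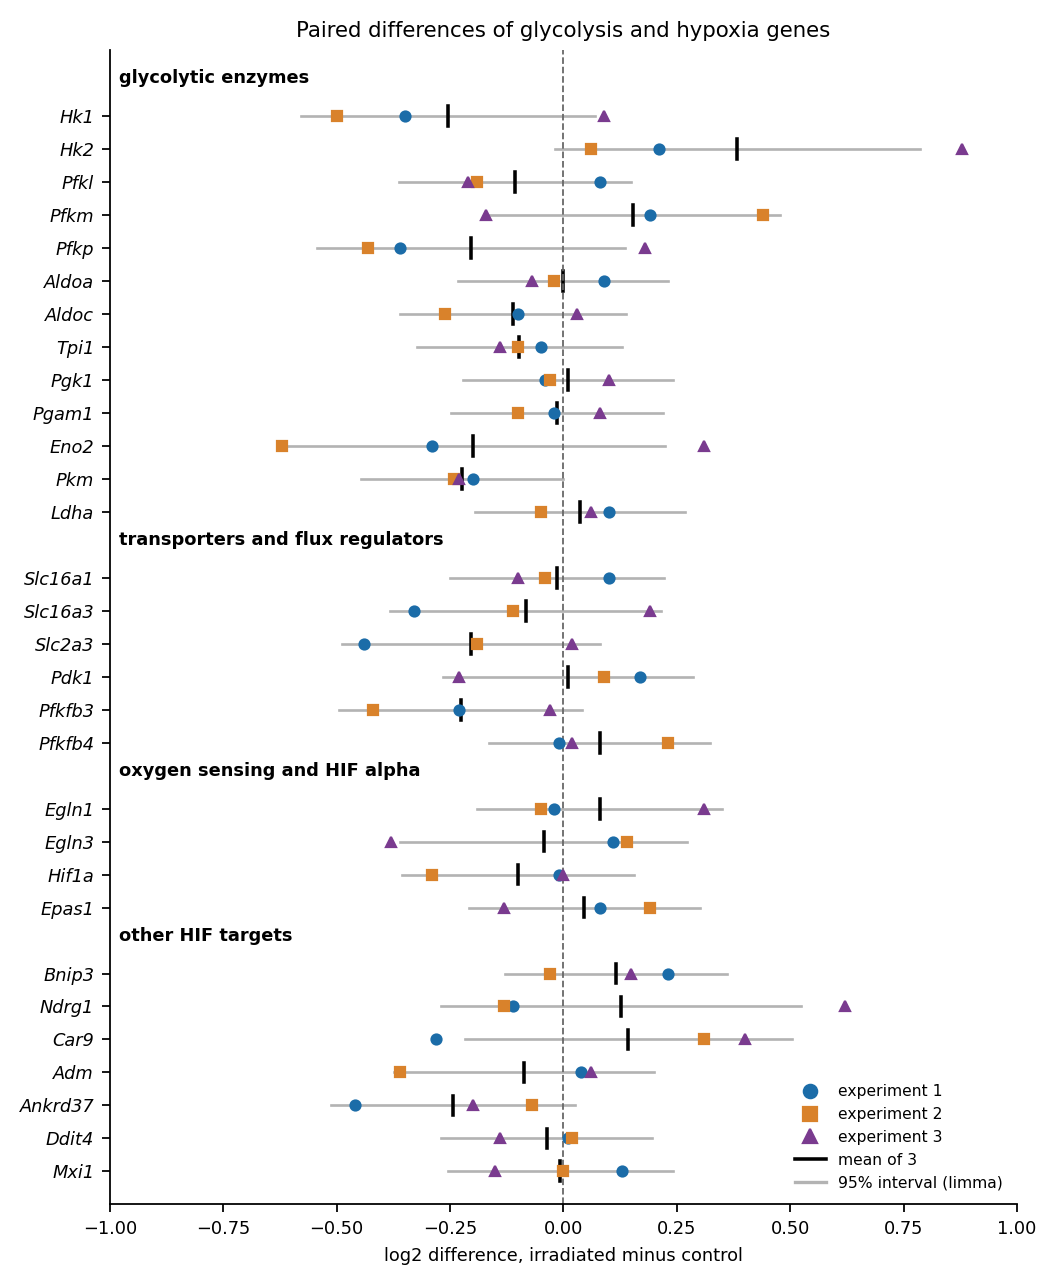
Log2 difference, irradiated minus control, of 30 genes (rows, grouped by role) in each of 3 experiments (symbols), with the mean (black bar) and the limma 95% interval (grey line). Most genes have symbols on both sides of 0, and Pkm has all 3 close together, at -0.20, -0.24 and -0.23.

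Entry of glucose into the pathway showed opposite readings for the paired hexokinases, which phosphorylate glucose. Hk2, the inducible hexokinase of insulin-sensitive tissues, read 11.13, 10.60 and 11.01 in irradiated cultures of experiments 1 to 3, against 10.92, 10.54 and 10.13 in their controls. The irradiated culture was higher each time, but the groups overlapped, and the control of experiment 3 was the lowest of the 6 arrays. The mean difference of 0.38 ± 0.17 (SE), or 1.30-fold, had a 95% interval of -0.02 to 0.79 (limma adjusted p = 0.627), and it was 0.14 without experiment 3.

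Hk1, the hexokinase found in most tissues, read 9.17, 8.74 and 9.20 in irradiated cultures against 9.52, 9.24 and 9.11 in controls. It was lower in experiments 1 and 2 and slightly higher in experiment 3, and the groups overlapped. The mean difference was -0.25 ± 0.14 (SE), with a 95% interval of -0.58 to 0.07 (limma adjusted p = 0.671), and it was -0.43 without experiment 3. A dimmer probe set of Hk1, below 6, was lower in all 3 experiments, by 0.16, 0.25 and 0.23 on the log2 scale. The difference for Hk2 exceeded that for Hk1 by 0.56, 0.56 and 0.79 in the 3 experiments. This contrast was picked out after its values were seen and has no test. Of 9 pairs of related genes compared this way, it was 1 of 3 with 1 sign throughout, beside Pfkm over Pfkl (0.11, 0.63 and 0.04) and Pfkfb4 over Pfkfb3 (0.22, 0.65 and 0.05). These pairs used each gene's brightest probe set. A second Pfkl probe set differed by 0.16 in experiment 3, above the -0.17 of Pfkm, so the sign of that pair depends on the probe set.

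**Figure D2:**
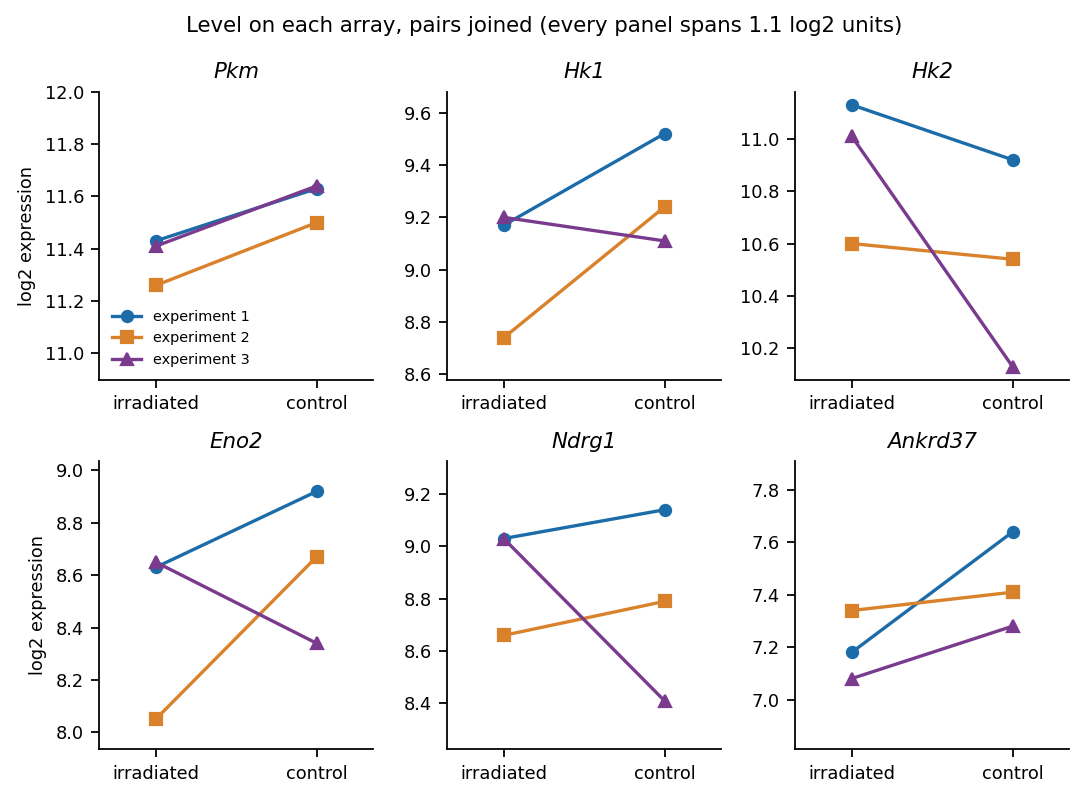
Log2 expression of 6 genes on each array, irradiated at the left and control at the right of each panel, with the arrays of an experiment joined; each panel spans the same range. The Pkm lines are almost parallel, while for Hk2 and Ndrg1 experiment 3 is steep and its control array is the lowest of the 6.

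Phosphofructokinase, the main regulated step, is built from 3 kinds of subunit, whose brightest probe sets differed in sign. The platelet type Pfkp differed by -0.36, -0.43 and 0.18 over the experiments, a mean of -0.20 ± 0.14 (SE). The muscle type Pfkm differed by 0.19, 0.44 and -0.17, a mean of 0.15 ± 0.14 (SE), and the liver type Pfkl by 0.08, -0.19 and -0.21, a mean of -0.11 ± 0.11 (SE). On these probe sets Pfkp and Pfkm each had experiment 3 opposite to experiments 1 and 2. A second Pfkl probe set, at about 7.2, differed by 0.08, -0.05 and 0.16, so the sign of Pfkl is not settled. A Pfkp probe set below 6 differed by -0.04, -0.31 and -0.56, and a still dimmer one by 0.18, 0.14 and 0.02. Pfkfb3 makes fructose 2,6-bisphosphate, the activator of this step. It read 8.39, 7.87 and 8.05 in irradiated cultures against 8.62, 8.29 and 8.08 in controls, with overlapping groups. Its difference was negative in all 3 experiments, widest in experiment 2 at -0.42, with a mean of -0.23 ± 0.11 (SE) (limma adjusted p = 0.652), and was -0.11 on the mean of its probe sets. Pfkfb4, a related enzyme induced by low oxygen in other cells, differed by -0.01, 0.23 and 0.02.

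Among the middle steps of the pathway, Aldoa, Pgk1 and Pgam1 gave small differences of mixed sign. Aldoa, which splits fructose bisphosphate, differed by 0.09, -0.02 and -0.07, with a mean of 0.00 and a 95% interval of -0.23 to 0.23. Pgk1, which makes the first ATP of the pathway, differed by -0.04, -0.03 and 0.10, and Pgam1, the mutase after it, by -0.02, -0.10 and 0.08. The 95% intervals of their mean differences were -0.22 to 0.24 and -0.25 to 0.22, so mean differences within those ranges were not excluded. Tpi1, which interconverts the triose phosphates, differed by -0.05, -0.10 and -0.14, and its other probe sets had means that were lower too. Its mean of -0.10 ± 0.09 (SE) had an interval of -0.32 to 0.13. Aldoc, the brain type aldolase, differed by -0.10, -0.26 and 0.03 near the level of 6.

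Eno2, the neuronal enolase gene that HIF also induces, differed most between experiments of the 30 genes, with an SD of 0.47 over its 3 differences. It read 8.63, 8.05 and 8.65 in irradiated cultures against 8.92, 8.67 and 8.34 in controls. The irradiated array of experiment 2 was the lowest and the control of experiment 1 the highest, and in experiment 3 the irradiated array lay above its control. The differences of -0.29, -0.62 and 0.31 gave a mean of -0.20 ± 0.18 (SE) (limma adjusted p = 0.795), which was -0.46 without experiment 3 and 0.01 without experiment 2.

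Pkm, the pyruvate kinase gene whose splice forms set how fast pyruvate is made, read 11.43, 11.26 and 11.41 in irradiated cultures against 11.63, 11.50 and 11.64 in controls. Each irradiated array lay below every control array, and Pkm was the only 1 of the 30 genes whose groups did not overlap, where 9.96% of all genes had such groups. The differences of -0.20, -0.24 and -0.23 had an SD of 0.02 over the experiments, the smallest of the 30. The mean was -0.22 ± 0.09 (SE), or 1.17-fold lower, with a 95% interval of -0.45 to 0.00 and a limma adjusted p of 0.619. The table has 1 probe set for Pkm and names no splice form. Over 9173 genes with a mean of at least 6, a difference as low as that of Pkm was found in 14.2%, 13.4% and 18.5% in the 3 experiments, so the reading was steady but not large. Ldha, which makes lactate, differed by 0.10, -0.05 and 0.06, with an interval of -0.19 to 0.27.

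Transporters and the switch into mitochondria gave small or mixed readings. Slc16a1, a lactate and pyruvate carrier, differed by 0.10, -0.04 and -0.10, with an interval of -0.25 to 0.22. Pdk1, which switches off pyruvate dehydrogenase, differed by 0.17, 0.09 and -0.23. Its dimmer probe sets above 6 differed by 0.04, -0.47 and -0.08 and by 0.07, 0.19 and 0.08, so its sign depends on the probe set. The glucose transporter Slc2a3 and the lactate exporter Slc16a3, a HIF target, were below the level of 6 on all 6 arrays, at 5.48 to 5.77 and 3.73 to 4.04 in irradiated cells against 5.68 to 5.92 and 3.84 to 4.28 in controls. Readings this dim say little about a difference.

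Of the alpha subunits, Hif1a read 11.80, 11.50 and 11.84 in irradiated cultures against 11.81, 11.79 and 11.84 in controls. These were equal within 0.01 in experiments 1 and 3 and lower by 0.29 on the log2 scale in experiment 2. A second probe set, at about 8.5, differed by 0.10, -0.41 and 0.30, so both were lowest in experiment 2 and they differed in experiment 3. Epas1, which encodes HIF-2 alpha and is active in fat cells, differed by 0.08, 0.19 and -0.13. Its other probe set, at about 6.4, differed by 0.17, 0.00 and -0.58, so both had experiment 3 below 0. The prolyl hydroxylase gene Egln1 read 10.05, 9.83 and 10.07 in irradiated cultures against 10.07, 9.88 and 9.76 in controls. This probe set differed by 0.31 in experiment 3 and by -0.02 and -0.05 in the others, and a dimmer one by 0.31 in experiment 3 and by 0.18 and -0.10. The probe sets of Egln3, a hydroxylase induced by HIF, lay near or below 6 and differed in opposite directions in experiment 3, by -0.38 and 0.40, so that gene has no settled reading.

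Of the 7 further HIF targets, Ankrd37 had 1 sign in all 3 experiments, and Ndrg1 had the widest spread between them. Ankrd37, an ankyrin repeat gene used as a marker of HIF activity, read 7.18, 7.34 and 7.08 in irradiated cultures against 7.64, 7.41 and 7.28 in controls. Each irradiated array was below its own control, with overlapping groups, and the mean difference was -0.24 ± 0.11 (SE) (limma adjusted p = 0.643), which was -0.135 without experiment 1. Ndrg1, a stress gene induced by low oxygen, read 9.03, 8.66 and 9.03 in irradiated cultures against 9.14, 8.79 and 8.41 in controls. It was lower in experiments 1 and 2 and 0.62 higher in experiment 3, where the control array was the lowest of the 6, and its mean of 0.13 became -0.12 without that experiment. All 5 Ndrg1 probe sets were negative in experiments 1 and 2 and positive, by 0.33 to 0.62, in experiment 3.

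Bnip3, which drives mitophagy, differed by 0.23, -0.03 and 0.15, a mean of 0.12 with an interval of -0.13 to 0.36. Adm, the vasodilator peptide adrenomedullin, differed by 0.04, -0.36 and 0.06, and its other probe set by 0.13, -0.40 and 0.12. Ddit4, an inhibitor of mTORC1, differed by 0.01, 0.02 and -0.14, and Mxi1, an antagonist of Myc, by 0.13, 0.00 and -0.15. Car9, the carbonic anhydrase that is among the most HIF-dependent genes of tumour cells, was dim, at 4.76 to 5.27 in irradiated cells and 4.87 to 5.04 in controls.

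Glycolytic enzymes were set against the 7 further HIF targets within each experiment. The enzyme medians were -0.04, -0.10 and 0.06 and the target medians 0.01, -0.03 and 0.06. The enzymes therefore lay 0.05 and 0.07 below the targets in experiments 1 and 2 and level with them in experiment 3. In each experiment the range within either class, such as -0.62 to 0.44 for the enzymes in experiment 2, was far wider than this gap. Over the means of the 3 experiments the medians were -0.10 for 13 enzymes and -0.01 for 7 targets. The median was 0.00 over the 9173 genes with a mean of at least 6. The enzyme median minus the target median was -0.09, a wider gap than in any 1 of the experiments. By direction, 8 enzymes were lower and 4 higher, and 4 targets were lower and 3 higher, where 47.9% of all genes were lower.

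**Figure D3:**
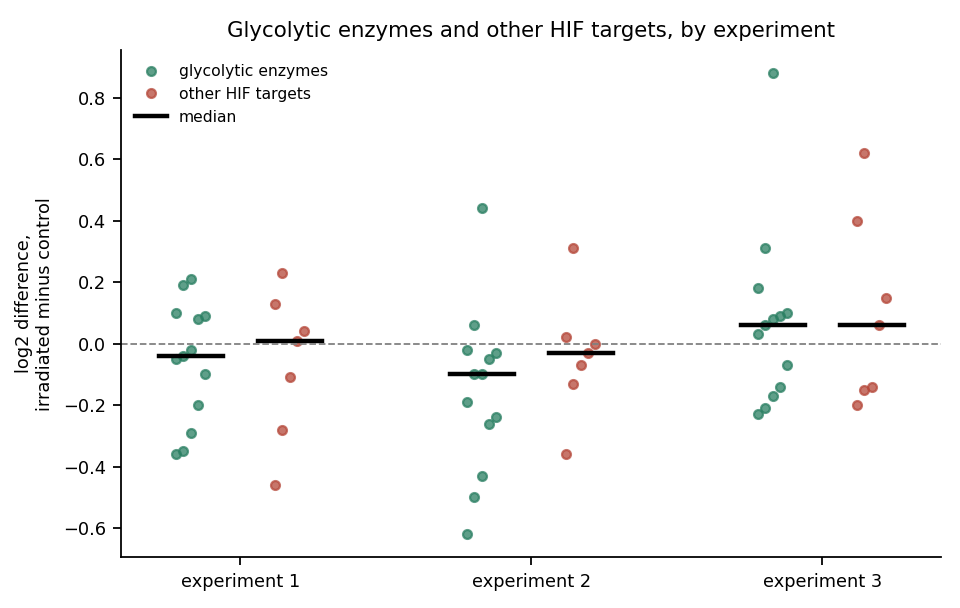
Log2 difference, irradiated minus control, of 13 glycolytic enzymes and 7 further HIF targets in each experiment, 1 point a gene, with the median as a bar. The classes overlap in every experiment, with enzyme medians of -0.04, -0.10 and 0.06 beside target medians of 0.01, -0.03 and 0.06.

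Over these genes experiments 1 and 2 were more alike than either was to experiment 3. Of the 26 genes with a mean of at least 6, 4 were lower in all 3 experiments (Pkm, Tpi1, Pfkfb3 and Ankrd37) and 1 was higher (Hk2), where the shares over all genes at that level were 18.5% and 18.6%. In 12 of the 26, experiments 1 and 2 had 1 sign and experiment 3 the other, where the share over all genes was 26.1%. This way of counting was chosen after the values were seen. Pearson's r of the differences over the 26 genes was 0.66 for experiments 1 and 2, 0.01 for experiments 1 and 3 and -0.17 for experiments 2 and 3. Over the 9173 genes at that level it was 0.52, 0.30 and 0.06. These correlations run across genes read on the same arrays, and genes are not independent replicates.

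**Figure D4:**
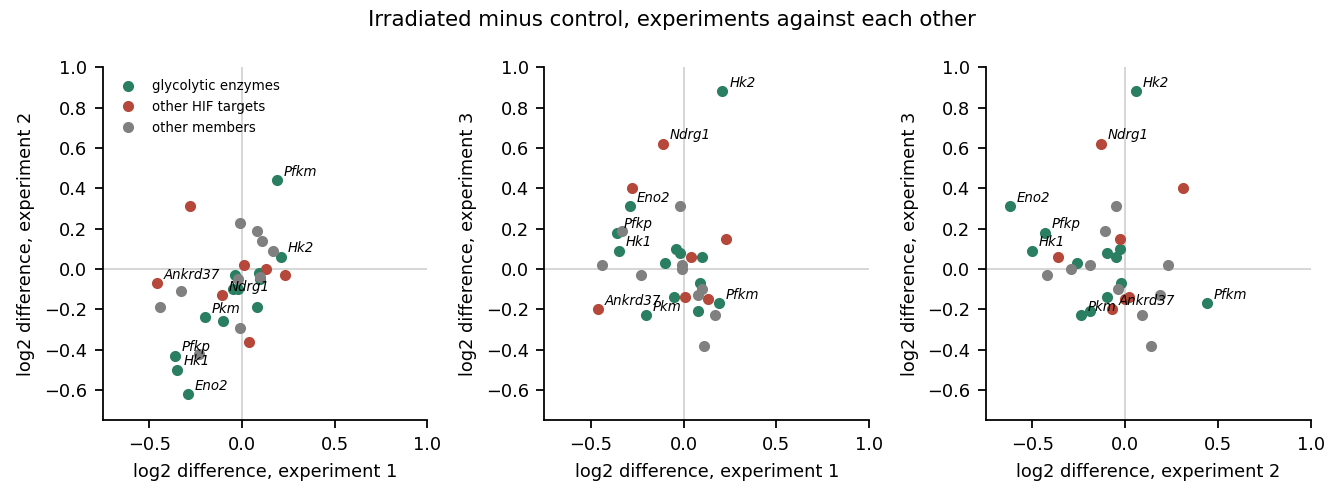
Log2 difference, irradiated minus control, of 30 genes in 1 experiment against another, coloured by class. Experiments 1 and 2 spread along the diagonal, while Hk2 and Ndrg1 stand at 0.88 and 0.62 in experiment 3, and Eno2 and Pfkp are below 0 in experiments 1 and 2 and above it in experiment 3.

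In experiment 3 the readings that differed by 0.3 or more in size were Hk2 at 0.88, Ndrg1 at 0.62, Car9 at 0.40, Egln3 at -0.38, Eno2 at 0.31 and Egln1 at 0.31. These were 6 of the 30 genes (20%), where the share over genes at a mean of at least 6 was 26.9%. Car9 was dim, and the other Egln3 probe set differed by 0.40. A difference as high as that of Hk2 was found in 0.85% of genes at a mean of at least 6 in experiment 3. The share was 3.06% for Ndrg1 and 13.0% for Eno2 and Egln1. Hybridisation control transcripts differed by 0.51 on the log2 scale between the irradiated and the control array of experiment 3, against 0.07 and -0.05 in experiments 1 and 2, and the part of this in the readings was not tested. Without experiment 3, 4 genes were lower at an unadjusted p under 0.05, where the share over all genes was 4.59%, and 0 passed adjustment. They were Hk1 and Pfkp, and also Eno2 and Pfkfb3, at -0.43, -0.40, -0.46 and -0.33, with an adjusted p from limma of 0.593 for each.

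Levels also differed between experiments. The mean of the paired arrays ranged over 0.24 between the highest and the lowest experiment as a median over the 30 genes, beside 0.22 over genes at a mean of at least 6. Experiment 1 had the highest pair mean for 21 of the 30, including 10 of 13 enzymes, where the share over genes at a mean of at least 6 was 51.0%, and Slc16a1, tied with experiment 3, is counted among the 21. Egln3 ranged over 0.74, Pfkfb4 over 0.55 and Pfkl over 0.53.

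A further 4 lists from the same pathways were read in the same fit, and 0 of their genes passed adjustment. Of 33 further genes of glycolysis and pyruvate use 28 were measured, with 2 lower and 2 higher at an unadjusted p under 0.05, where the shares over all genes were 4.61% and 3.7%, and a median of -0.02. Bpgm, which makes 2,3-bisphosphoglycerate, differed by -0.28, -0.35 and -0.27, a mean of -0.30 ± 0.09 (SE) with a limma adjusted p of 0.566. Pdp2, a phosphatase that activates pyruvate dehydrogenase, differed by -0.28, while Dld, a subunit of that complex, differed by 0.23 and the pyruvate carrier gene Slc16a7 by 0.26. Dld differed by 0.06 on the mean of its probe sets. Of 18 pentose phosphate and glycogen genes 16 were measured and 0 reached that p, with a median of -0.01. The transaldolase gene Taldo1 differed by -0.16, -0.20 and -0.27 and the transketolase gene Tkt by -0.13, 0.00 and -0.32, while the glycogen genes Phka1 and Ppp1r3c differed by 0.13 and -0.12.

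Of 18 genes for parts of the HIF machinery 16 were measured, with 11 higher, 4 lower, 1 at 0 and a median of 0.065. Over all genes 9299 of 18193 were higher. At an unadjusted p under 0.05 1 was higher and 0 lower, where the shares over all genes were 3.7% and 4.61%. That gene was Siah1a, a ubiquitin ligase that acts on prolyl hydroxylases, which differed by 0.45, 0.32 and 0.62. It averaged 8.83 in irradiated and 8.37 in control cultures, a difference of 0.46 ± 0.10 (SE) with a limma adjusted p of 0.535. A closely similar mouse gene, Siah1b, could share its probes. Cited2, which competes with HIF for its coactivators, differed by 0.23, Arnt, the stable HIF partner, by 0.21 and Cul2, the scaffold of the ligase that destroys HIF alpha, by 0.20, each with 1 sign in all 3 experiments. On the mean of a gene's probe sets Arnt differed by 0.07 and Cul2 by 0.325. Siah1a, Cited2, Arnt and Cul2 were named for the largest test statistics in their list, a choice that favours 1 sign.

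Of 44 further HIF targets 39 were measured, with 4 lower and 2 higher at an unadjusted p under 0.05, where the shares over all genes were 4.61% and 3.7%, and a median of 0.02. The chemokine receptor gene Cxcr4 differed by -0.51, -0.33 and -0.47, a mean of -0.44 ± 0.10 (SE) with a limma adjusted p of 0.532. Myeloid cells also carry this receptor. The macrophage markers had lower means in 12 of 12, where 48.5% of genes at a mean of at least 6 were lower. Their median difference was -0.225, 0.045 and -0.125 in experiments 1 to 3, and their part in the Cxcr4 reading was not tested. The collagen lysyl hydroxylase gene Plod2 went the other way by 0.24, 0.45 and 0.42. Stc1, a secreted glycoprotein, differed by -0.80, -0.84 and 0.10 and was again opposite in experiment 3. Its mean of -0.51 was -0.82 without that experiment and -0.16 on the mean of its probe sets. Rsbn1 differed by -0.10, -0.30 and -0.50.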

How the data were processed

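Per the labels' protocols, 200 ng of total RNA from each of 6 mouse mesenchymal stem cell cultures was labelled for Affymetrix arrays. The authors deposited 1 log2 value for each probe set and array, made with RMA and the affy package, with limma named beside them, per the submitters' processing notes. Versions, background step and genome build are not stated in these sources. Of 45101 probe sets 64 array controls were left out. Of the rest 34945 carry 1 gene symbol, 932 several and 9160 none in the platform annotation, and symbols were updated by gene identifier to GRCm38.p6.

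Groups and pairs came from the sample titles and the design text, which sets each irradiated culture against its own control. Deviations from group means correlated at 0.789, 0.028 and 0.325 within the pairs. The irradiated array of experiment 2 correlated at 0.552 with the control of experiment 3, more than with its own control. The pairing, and with it each difference by experiment, therefore rests on that text. Tests used lmFit and eBayes of limma 3.58.1 in R 4.3.3, in a two-sided test that blocked on experiment, with 2 residual and 4.52 prior degrees of freedom, and Benjamini-Hochberg adjustment over 45037 probe sets at 0.05. Intervals are 95% from this fit. The genes and lists were chosen with earlier results of these data known. Every gene of the 32 is named, and of each further list up to 4 with a mean of at least 6 in 1 group and the largest moderated statistic. No 2 arrays held the same values.

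The fit was repeated without the block, with it as random, without each experiment in turn, without dim probe sets, after median centring or quantile normalization, with array weights, with a trend and robust prior, on the mean of a gene's probe sets and on 1 probe set per gene. Figures were drawn with matplotlib 3.10.9.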

Additional observations from a re-analysis of the deposited data

Results flagged for a closer look

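The hybridisation controls, transcripts spiked into each sample and used in no comparison, had a mean log2 signal of 11.54 on the irradiated array of experiment 3 against 11.03 on its control array, a difference of 0.511. The irradiated array lay above every control array, and its part in the readings of experiment 3 was not tested.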

How the results depend on the processing

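No gene of the 30 passed adjustment under any of the alternatives tried, and the number at an unadjusted p under 0.05 moved with the setting. It was 0 without the replicate block, as with it, and 1 with a random replicate block, with dim probe sets left out, with quantile normalization, with median centring and with 1 probe set per gene, Pkm each time. It was 2 with the trend and robust prior and 2 with the mean of probe sets. Array weights, which gave experiment 3 the lowest weight, made it 6, where the share over all genes was 10.8%. Leaving out 1 experiment gave 0 to 4, where the shares over all genes were 3.63%, 5.47% and 8.51% without experiments 1, 2 and 3. In the other settings this share was 4.85% without the block and 8.43% with it as random. It was 13.5% with dim probe sets left out, 8.35% with quantile normalization and 8.33% with median centring. It was 9.3% with 1 probe set per gene, 9.87% with the trend and robust prior and 8.12% with the mean of probe sets. With all 3 experiments the enzyme median minus the target median was -0.09. With 1 experiment left out the enzyme median was -0.115 to 0.01, the target median -0.06 to 0.05 and their difference -0.075 to -0.04. The difference was -0.0403 with the mean of probe sets. Against all 17 other measured genes, an alternative chosen after seeing the data, it was -0.0833. Signs turned mostly in readings near 0, but also for Slc2a3 and Eno2, at -0.20 each. They turned too for Ndrg1, at 0.13, Ppp1r3c, at -0.12, and Pfkl, at -0.11. With array weights Pgk1 differed by -0.0124, Slc16a1 by 0.0198, Egln3 by 0.0346 and Mxi1 by 0.0391. With the mean of probe sets Pfkl differed by 0.0189, Slc16a1 by 0.135, Slc2a3 by 0.0975, Egln3 by 0.0217, Epas1 by -0.045 and Mxi1 by 0.005. With 1 experiment left out the ranges that crossed 0 were -0.035 to 0.035 for Pgk1, -0.06 to 0.03 for Pgam1, -0.455 to 0.01 for Eno2, -0.07 to 0.03 for Slc16a1, -0.22 to 0.04 for Slc16a3, -0.07 to 0.13 for Pdk1, -0.035 to 0.145 for Egln1, -0.135 to 0.125 for Egln3, -0.025 to 0.135 for Epas1, -0.12 to 0.255 for Ndrg1, -0.16 to 0.05 for Adm, -0.065 to 0.015 for Ddit4, -0.075 to 0.065 for Mxi1 and -0.2 to 0.005 for Ppp1r3c. Aldoa, at 0 in the fit with all arrays, ranged over -0.045 to 0.035. The cause was not tested.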
